A study of Mus musculus with 12 samples.

Results

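The difference between L and M conventional dendritic cells (cDCs) of the mouse spleen was compared between the 2 cDC subsets, gene by gene. For each gene the L minus M difference in cDC1 was taken, and the L minus M difference in cDC2 was subtracted from it. This difference of differences, called the interaction here, is positive when L minus M is the higher in cDC1 and negative when it is the higher in cDC2. Values were FPKM, fragments scaled to gene length and library depth, and every difference below is on the log2(FPKM + 1) scale. A gene was eligible when its mean level reached 5 FPKM in at least 1 cDC1 group and at least 1 cDC2 group, so that a lower level could be seen in both subsets. Of 12434 genes tested among 55322 in the table, 6035 were eligible (48.5%). Just inside the level rule were Tbc1d25 and Mrps30, with limiting means of 5.0007 and 5.0035 FPKM, and the highest among genes left out were those of Slc39a13 (4.9991) and Uba3 (4.9990).

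The 4 groups, with 3 libraries each and all from spleen, were L-cDC1 and L-cDC2 beside M-cDC1 and M-cDC2. The labels give every library the genotype Il7r-cre with a Rosa26-lsl-tdTomato reporter, whereas the growth text names WT C57BL/6J mice, kept specific-pathogen-free and used at 7 to 8 weeks. In such mice the Il7r promoter drives Cre, so a cell with a history of Il7r expression, and its descendants, become fluorescent. Lymphocytes have that history too. The series title speaks of cDCs of lymphoid origin, but the labels do not spell out the letters L and M, do not tell whether a library was sorted by the reporter, and do not tie libraries to animals. P-values therefore measure the spread between these libraries, which may be technical.

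Libraries held 15879864 to 24498235 reads. The cDC1 receptor gene Xcr1 averaged 206 (L) and 225 (M) FPKM in cDC1 and 0.88 (L) and 1.62 (M) in cDC2. Sirpa, a marker gene of cDC2 whose protein binds Cd47, averaged 184 (L) and 215 (M) FPKM in cDC2 and 0.826 (L) and 0.365 (M) in cDC1, so the subset labels matched their markers. Genes of this kind are not eligible, because they are near 0 in the other subset. The share of reads in antigen receptor genes (immunoglobulin and T cell receptor) was 0.0903% to 0.14% for L-cDC1, 0.0573% to 0.0658% for M-cDC1, 0.135% to 0.426% for L-cDC2 and 0.0611% to 0.0644% for M-cDC2.

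Both cDC subsets take up antigen and present it to T cells. The cDC1 subset depends on Irf8 and Batf3 and is known for presenting antigen of dead cells on MHC class I, while the cDC2 subset depends in part on Irf4 and is known for priming CD4+ T cells. The comparison asks which differences between L and M were alike in both subsets and which were not. In RNA from a sorted pool, fewer cells of a type and less RNA per cell cannot be told apart.

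Few eligible genes had a subset-dependent difference that passed the test. By limma with Benjamini-Hochberg adjustment over all 12434 genes, 9 of the 6035 eligible genes had an interaction at an adjusted p under 0.05, and 532 at an unadjusted p under 0.05. Over all genes tested 0.298% passed, so the share of eligible genes that passed (0.149%) was not above the background. The interaction was positive in 7 (0.193% of all genes tested passed in that direction) and negative in 2 (0.105%). The positive genes were Psap, Lyz2, Lgals3, Tmem176a, Arl5c, Atp8b2 and Ccny, and the negative genes were Fcrla and Serpinb2. Of the 9 genes, 6 passed the L minus M test in cDC2, 1 passed it in cDC1 and 2 passed it in neither. Psap alone held its call when each of the 12 libraries was left out in turn, Fcrla held it in 10 of the 12, and the other 7 genes held it in 1 to 4.

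The level rule bears on these counts. In 4 of the 9 genes (Atp8b2, Ccny, Fcrla and Serpinb2) a subset reached 5 FPKM through only 1 of its 2 groups, which favours genes that differ between L and M. The same was so of 574 of all 6035 eligible genes (9.51%).

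**Figure D1:**
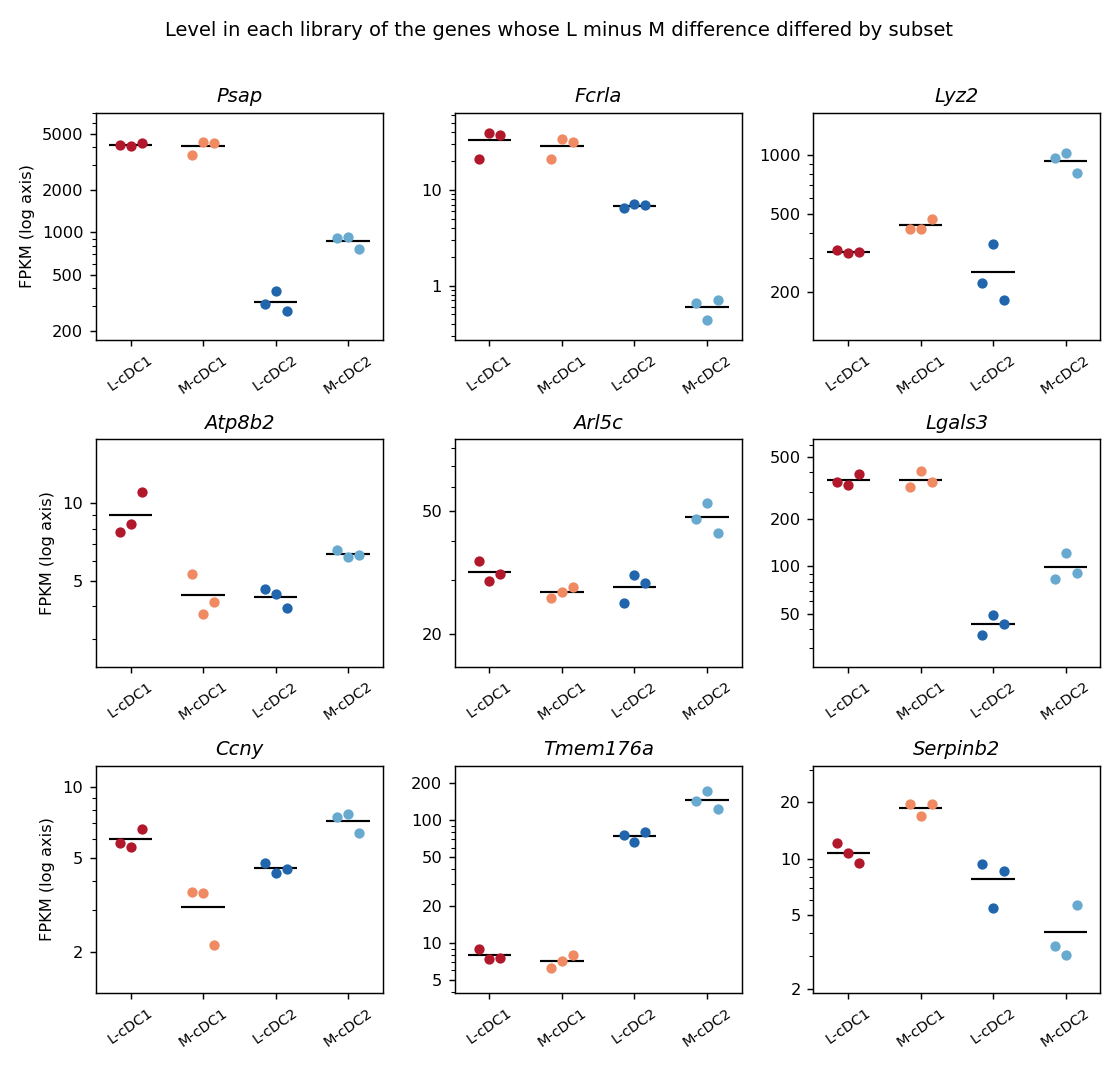
Level in FPKM on a log axis of the 9 genes with a called interaction, in each library (points) with the group mean (line), n = 3 libraries per group. In Psap, Lgals3 and Tmem176a the L-cDC2 points lie below the M-cDC2 points while the cDC1 groups overlap, and in Fcrla the L-cDC2 points lie above the M-cDC2 points.

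The start-site regions of 5 of these genes are shown first, since they are the genes with a called interaction and a called L minus M difference in cDC2 for which RefSeq (build GRCm38.p6) gave a sequence. Each holds 250 bases before and 50 bases from the annotated start, 5′ to 3′ on the strand of the gene. The motifs searched on both strands were an interferon-stimulated response element (GAAANNGAA), an NF-kB site (GGGANTTTC), an RBPJ site (GTGGGAA), an AP-1 site (TGACTCA), a PU.1 site (GAGGAAGT), an E-box (CACCTG), a GC box (GGGCGG), a CRE site (TGACGTCA) and a KLF site (CCACACCC). Capitals mark matches, and matches of different motifs did not overlap in these 5 sequences.
Psap, chr10:60277378-60277677, plus strand: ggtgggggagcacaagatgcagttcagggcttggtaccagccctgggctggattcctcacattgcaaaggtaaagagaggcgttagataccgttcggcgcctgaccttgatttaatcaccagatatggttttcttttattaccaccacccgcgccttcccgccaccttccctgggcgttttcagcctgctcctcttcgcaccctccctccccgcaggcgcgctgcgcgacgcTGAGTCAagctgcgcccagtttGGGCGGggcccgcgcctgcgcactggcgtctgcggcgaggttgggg
Lyz2, chr10:117282223-117282522, minus strand: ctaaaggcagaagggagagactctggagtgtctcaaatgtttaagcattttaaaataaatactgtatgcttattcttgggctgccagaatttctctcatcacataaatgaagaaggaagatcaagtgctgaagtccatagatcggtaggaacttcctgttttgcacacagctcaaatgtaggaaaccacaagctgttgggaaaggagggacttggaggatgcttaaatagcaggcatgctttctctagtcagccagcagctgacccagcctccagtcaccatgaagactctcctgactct
Lgals3, chr14:47373610-47373909, plus strand: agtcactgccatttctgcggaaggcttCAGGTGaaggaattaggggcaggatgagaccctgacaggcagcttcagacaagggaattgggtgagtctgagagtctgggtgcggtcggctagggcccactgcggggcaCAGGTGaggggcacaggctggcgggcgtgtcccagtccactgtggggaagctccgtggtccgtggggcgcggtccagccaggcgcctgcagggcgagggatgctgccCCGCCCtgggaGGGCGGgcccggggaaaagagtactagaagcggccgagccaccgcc
Tmem176a, chr6:48841233-48841532, plus strand: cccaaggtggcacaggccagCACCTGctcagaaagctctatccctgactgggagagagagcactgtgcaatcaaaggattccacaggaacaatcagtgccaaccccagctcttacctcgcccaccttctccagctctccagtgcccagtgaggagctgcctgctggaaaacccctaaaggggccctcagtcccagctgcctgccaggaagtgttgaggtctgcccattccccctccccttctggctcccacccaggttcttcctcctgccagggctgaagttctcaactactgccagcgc
Fcrla, chr1:170927534-170927833, minus strand: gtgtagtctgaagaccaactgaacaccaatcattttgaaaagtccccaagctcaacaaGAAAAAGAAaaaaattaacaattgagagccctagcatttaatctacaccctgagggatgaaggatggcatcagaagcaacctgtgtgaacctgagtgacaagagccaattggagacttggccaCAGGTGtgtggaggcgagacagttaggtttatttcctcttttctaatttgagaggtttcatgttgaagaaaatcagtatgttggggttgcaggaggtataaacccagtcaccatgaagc

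In the Psap sequence the capitals mark an AP-1 site at base 233 and a GC box at base 255. That of Lgals3 held E-boxes at bases 28 and 137 and GC boxes at bases 244 and 255, that of Tmem176a an E-box at base 21, and that of Fcrla an interferon-stimulated response element at base 59 and an E-box at base 182. None of the motifs searched was in the Lyz2 window. Of the 4763 eligible genes with a sequence, 15.9% held an E-box, 66.4% a GC box, 3.04% an AP-1 site and 7.83% the interferon element, against 19.9%, 36%, 5.16% and 8.56% of all 27025 genes of the table. The 9 genes included 7 with a sequence, of which 3 held an E-box, 3 a GC box, 1 an AP-1 site and 1 the interferon element. A match is a description of letters and not of binding.

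Psap, on chromosome 10 (60113449 to 60138376 in the deposited table, whose build is not given in the sources used here), had the smallest interaction p among eligible genes. It encodes prosaposin, the precursor of the saposins that help lysosomal enzymes break down sphingolipids. Its level was 4142, 4092 and 4282 FPKM in the L-cDC1 libraries and 3548, 4387 and 4286 in the M-cDC1 libraries. In cDC2 it was 309, 382 and 275 FPKM in the L libraries and 915, 927 and 763 in the M libraries. The cDC1 groups overlapped, while every L-cDC2 library was under every M-cDC2 library, at a mean 2.696-fold lower. L minus M was 0.04 in cDC1 (SE 0.124, limma adjusted p = 0.957) and -1.44 in cDC2 (adjusted p = 2.85e-05). The interaction was 1.48 (SE 0.175, 95% interval 1.098 to 1.85, adjusted p = 0.00581). The mean level was 4172 ± 98.3 FPKM in L-cDC1, 4073 ± 458 in M-cDC1, 322 ± 54.3 in L-cDC2 and 868 ± 91.2 in M-cDC2 (SD, n = 3 each).

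Lyz2, the lysozyme gene of macrophages and other myeloid cells (chromosome 10, 117113236 to 117118226), had the lowest L minus M value in cDC2 among the 9. Its level was 329, 318 and 319 FPKM in L-cDC1 and 420, 418 and 474 in M-cDC1. In cDC2 it was 223, 351 and 182 FPKM in L and 969, 1021 and 804 in M. The groups did not overlap in either subset, and the gap was the wider in cDC2, where M was 3.695-fold above L. L minus M was -0.44 in cDC1 (limma adjusted p = 0.411) and -1.93 in cDC2 (adjusted p = 5.0e-05), with an interaction of 1.49 (SE 0.254, adjusted p = 0.0250). Its close paralog Lyz1, with which the counting could split reads, averaged 22.1 FPKM (L) and 23.5 (M) in cDC1 and 12.8 (L) and 17.9 (M) in cDC2, and its difference in cDC2 was -0.48 (adjusted p = 0.605).

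Lgals3 encodes galectin-3, a lectin that binds β-galactosides (chromosome 14, 47605208 to 47623617). It stood at 348, 333 and 388 FPKM in L-cDC1 and at 321, 404 and 346 in M-cDC1, which overlapped. In cDC2 it stood at 36.8, 48.9 and 43.2 FPKM in L and at 83.2, 122 and 91.5 in M, which did not overlap and differed 2.2982-fold. L minus M was -1.17 in cDC2 (limma adjusted p = 0.00045) and -0.00074 in cDC1, with an interval there from -0.31 to 0.31, and the interaction was 1.17 (SE 0.206, adjusted p = 0.0286).

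Tmem176a, a membrane protein gene of antigen-presenting cells (chromosome 6, 48817853 to 48824005), was expressed mainly in cDC2. There it stood at 76, 66.8 and 80.2 FPKM in L and at 143, 174 and 124 in M, 1.98-fold apart and without overlap. In cDC1 it stood at 8.88, 7.37 and 7.50 FPKM in L and at 6.24, 7.09 and 8.03 in M, which overlapped. The interaction was 1.1 (SE 0.198, limma adjusted p = 0.0328), from 0.14 in cDC1 and -0.96 in cDC2 (adjusted p = 0.00181). Its neighbour Tmem176b on the other strand overlaps its span (48810752 to 48818430), and without strand in the library kit reads from the shared stretch cannot be told apart. Tmem176b had values in the same direction, with an L minus M of -0.57 in cDC2 (adjusted p = 0.0322) and 0.01 in cDC1, but its interaction of 0.57 did not pass (adjusted p = 0.319).

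Arl5c, which encodes an Arf-like small GTPase (chromosome 11, 97880404 to 97887007), stood at 25.2, 31 and 29.3 FPKM in L-cDC2 and at 47.3, 53.4 and 42.6 in M-cDC2. In cDC1 it stood at 34.5, 29.8 and 31.3 FPKM in L and at 26.3, 27.4 and 28.5 in M. The groups did not overlap in either subset, with L the lower in cDC2 and slightly the higher in cDC1. L minus M was -0.72 in cDC2 (limma adjusted p = 0.00362) and 0.21 in cDC1 (adjusted p = 0.584), and the interaction was 0.94 (SE 0.164, adjusted p = 0.0286).

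Atp8b2 and Ccny had values of opposite sign in the 2 subsets. Atp8b2, a phospholipid flippase subunit gene (chromosome 3, 89846788 to 89870815), stood at 7.73, 8.31 and 11 FPKM in L-cDC1 versus 5.35, 3.75 and 4.16 in M-cDC1. In cDC2 the order turned, with 4.66, 4.47 and 3.95 FPKM in L against 6.63, 6.19 and 6.35 in M. It was the only one of the 9 called in cDC1, at 0.88 (limma adjusted p = 0.0342), its cDC2 value of -0.46 did not pass (adjusted p = 0.268), and its interaction was 1.35 (SE 0.230, adjusted p = 0.0250). Ccny encodes cyclin Y, which binds cyclin-dependent kinases at the membrane. It stood at 5.79, 5.58 and 6.63 FPKM in L-cDC1 versus 3.59, 3.54 and 2.14 in M-cDC1, and at 4.77, 4.29 and 4.47 in L-cDC2 against 7.42, 7.66 and 6.39 in M-cDC2. Neither subset passed alone, at 0.79 in cDC1 (adjusted p = 0.0637) and -0.56 in cDC2 (adjusted p = 0.153), but the interaction of 1.36 did (SE 0.239, adjusted p = 0.0286).

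Fcrla had the lowest interaction among the 9. It encodes Fc receptor-like A, an intracellular protein of B cells that binds immunoglobulin (chromosome 1, 170745145 to 170755152). It stood at 20.9, 39.4 and 37.6 FPKM in L-cDC1 and at 20.7, 34 and 31.1 in M-cDC1, which overlapped. In L-cDC2 it stood at 6.52, 7.05 and 6.95 FPKM against 0.655, 0.433 and 0.71 in M-cDC2, which is 11.4-fold apart and without overlap. The lowest library held 12 reads of the gene, and 3 reads were worth 0.108 FPKM in the shallowest library. L minus M was 2.297 in cDC2 (limma adjusted p = 7.64e-05) and 0.16 in cDC1 (adjusted p = 0.878), and the interaction was -2.14 (SE 0.321, adjusted p = 0.0137). Both cDC1 groups thus held the transcript at a level above that of L-cDC2. With M-cDC1 replicate 2 left out the adjusted p was 0.0503, and with M-cDC2 replicate 2 left out it was 0.0629. By limma-voom on recovered reads the interaction was -3.30 (adjusted p = 0.0918), and with a pseudocount of 5 it was -0.93 (adjusted p = 0.285).

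Fcrla is a member of the B cell marker list, and that list moved with L in both subsets. Its 21 genes summed to 680 to 1093 FPKM in L-cDC1 and 379 to 422 in M-cDC1, and to 1081 to 3633 in L-cDC2 and 468 to 505 in M-cDC2. Of the 21, 18 averaged above 1 FPKM in L-cDC1, 9 in M-cDC1, 19 in L-cDC2 and 10 in M-cDC2, and the B cell factor gene Pax5 was at 0 in all libraries of both M groups. The part of B cell RNA in the Fcrla result was not tested.

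Serpinb2, which encodes a serine protease inhibitor also known as PAI-2 (chromosome 1, 107439153 to 107463208), was the other gene with a negative interaction. It stood at 12.1, 10.7 and 9.47 FPKM in L-cDC1 versus 19.6, 17 and 19.6 in M-cDC1, without overlap. In cDC2 it stood at 9.42, 5.47 and 8.56 FPKM in L against 3.41, 3.06 and 5.62 in M, which overlapped by a narrow margin. Neither L minus M difference passed alone, at -0.75 in cDC1 (limma adjusted p = 0.178) and 0.81 in cDC2 (adjusted p = 0.0784). The interaction was -1.56 (SE 0.295, adjusted p = 0.0461), the highest adjusted p of the 9.

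Among the 7 positive genes, 5 (Psap, Lyz2, Lgals3, Tmem176a and Arl5c) were lower in L-cDC2 by their own test in cDC2. The sum of the monocyte and macrophage marker list was lower in L-cDC2 too. That list holds Lyz2, which made up most of the gap, so the sum is not separate from the Lyz2 result. Its 24 genes summed to 1013 to 1206 FPKM in L-cDC2 and 1736 to 1978 in M-cDC2, and to 1006 to 1080 in L-cDC1 and 1093 to 1178 in M-cDC1. Of the 24, 17 averaged above 1 FPKM in L-cDC2 and 19 in M-cDC2, and none was at 0 in all libraries of either cDC2 group, while the macrophage receptor gene Mertk was at 0 in both cDC1 groups. Lyz2 itself made up 252 FPKM of the sum on average in L-cDC2 and 932 in M-cDC2. The part of monocyte RNA in these 5 results was not tested.

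**Figure D2:**
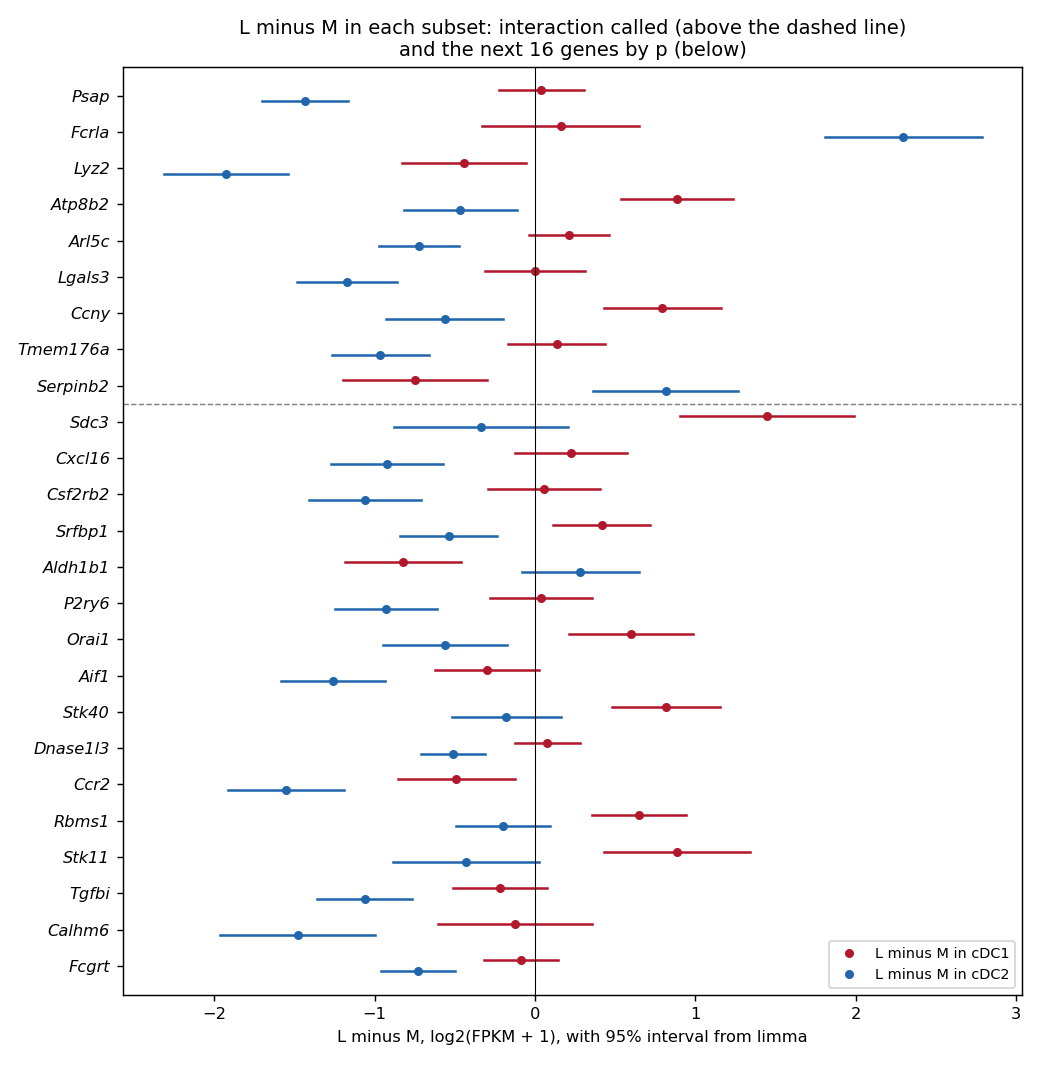
L minus M on the log2(FPKM + 1) scale in cDC1 (red) and cDC2 (blue) with 95% intervals from the limma fit (n = 3 libraries per group), for the 9 genes with a called interaction and, under the dashed line, the next 16 by p. In Psap the cDC1 value of 0.04 lies on the zero line and the cDC2 value of -1.44 far to its left, and in Fcrla the cDC2 value of 2.297 lies to the right.

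The next 16 genes by p did not pass, with limma adjusted p from 0.0664 to 0.171, and they were named after their values had been seen. The interaction was positive in 15 of them, Aldh1b1 being the exception at -1.11 (adjusted p = 0.0993). Several are known from myeloid cells. Cxcl16, a membrane-bound chemokine, stood at 12.6, 13.3 and 8.21 FPKM in L-cDC2 against 23.6, 22.3 and 20.2 in M-cDC2, while the cDC1 groups stood at 99.4, 75.8 and 75.3 in L and 73.7, 72.7 and 66.2 in M. Its L minus M was -0.92 in cDC2 (adjusted p = 0.00768) and 0.22 in cDC1, with an interaction of 1.14 (adjusted p = 0.0664). Csf2rb2, a receptor subunit for interleukin 3, had -1.06 in cDC2 (adjusted p = 0.00261) and 0.06 in cDC1, with an interaction of 1.12 (adjusted p = 0.0754). P2ry6, a receptor for UDP, had -0.93 in cDC2 (adjusted p = 0.00357) and 0.04 in cDC1.

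Ccr2, the receptor for the chemokine Ccl2 that guides monocytes and some dendritic cells, stood at 1.58, 2.17 and 1.79 FPKM in L-cDC2 and at 8, 7.41 and 6.66 in M-cDC2. In cDC1 it stood at 7.80, 8.17 and 5.84 FPKM in L and at 9.72, 12.8 and 9.32 in M. L was under M in every library of both subsets, 3.98-fold on average in cDC2, and the limma call was made in cDC2 (-1.55, adjusted p = 0.000148) but not in cDC1 (-0.49, adjusted p = 0.315). The interaction of 1.06 did not pass (adjusted p = 0.119), so the difference in size between subsets was not established for Ccr2.

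Sdc3, a heparan sulfate proteoglycan of the cell surface, was called in cDC1 and not in cDC2. It stood at 26.4, 38.1 and 47 FPKM in L-cDC1 versus 17.5, 8.58 and 13.3 in M-cDC1, and at 8.68, 8.21 and 6.61 in L-cDC2 against 7.82, 10.2 and 12.8 in M-cDC2. L minus M was 1.45 in cDC1 (limma adjusted p = 0.0245) and -0.34 in cDC2, and the interaction was 1.79 (SE 0.356, adjusted p = 0.0664). Stk40, which encodes a pseudokinase, was also called in cDC1, at 0.82 (adjusted p = 0.0453) against -0.18 in cDC2, with an interaction of 1.0 (adjusted p = 0.115).

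Counts of genes called within each subset were read against the interaction. In cDC1, 27 eligible genes passed L minus M (777 at an unadjusted p under 0.05; over all genes tested 0.394% passed), 24 with L higher (0.354%) and 3 with L lower (0.0402%). In cDC2, 80 passed (541 at an unadjusted p under 0.05; 1.83% over all genes tested), 29 with L higher (1.04%) and 51 with L lower (0.788%). The 80 included 68 not called in cDC1, yet the interaction itself passed in 6 of the 68, and the 27 included 15 not called in cDC2, of which 1 passed the interaction. For the other 62 and 14 genes a call in 1 subset and none in the other does not show that the subsets differed. The level rule bears on these calls too. Of the 27 genes, 17 (63%) reached 5 FPKM in a subset through only 1 of its 2 groups, which favours genes that differ. The same was so of 32 of the 80 genes (40%), beside 9.51% of all eligible genes.

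The 49 genes lower in L-cDC2 and not called in cDC1 had a median L minus M of -0.82 in cDC2, the value that chose them. In cDC1 their median was -0.18, beside 0.011 over all eligible genes, and 37 of the 49 were also below 0. Their cDC1 values ran from -0.53 to 0.22. Among these genes, Aif1, a calcium-binding protein gene of macrophages also called Iba1, had -1.26 in cDC2 (limma adjusted p = 0.000312) and -0.30 in cDC1. Cd209a, a C-type lectin gene of cDC2, had -1.03 in cDC2 (adjusted p = 0.00549) and -0.34 in cDC1. Ifitm3, an interferon-induced membrane protein that restricts virus entry, had -0.69 in cDC2 (adjusted p = 0.0133) and -0.53 in cDC1 (adjusted p = 0.125), with an interaction of 0.16 whose interval ran from -0.24 to 0.57.

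Other members of those 49 genes were far more abundant in cDC1 than in cDC2. Cst3, which encodes cystatin C, an inhibitor of cysteine proteases, averaged 15615 (L) and 16806 (M) FPKM in cDC1 and 696 (L) and 1104 (M) in cDC2. Its L minus M was -0.11 in cDC1 and -0.65 in cDC2 (limma adjusted p = 0.0204), with an interaction of 0.55 (adjusted p = 0.411). Naaa, a lysosomal acid amidase gene, had -0.10 in cDC1 and -0.75 in cDC2 (adjusted p = 0.00277), with an interaction of 0.65 (adjusted p = 0.192). Mpeg1, which encodes the pore-forming protein perforin-2, had -0.06 in cDC1 and -0.89 in cDC2 (adjusted p = 0.0074), with an interaction of 0.84 (adjusted p = 0.226). The part of cDC1 RNA in these cDC2 values was not tested. Ear2, by contrast more abundant in cDC2 and a ribonuclease gene of a family of near-identical copies, had -0.52 in cDC1 (adjusted p = 0.0914) and -1.05 in cDC2 (adjusted p = 0.000226).

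On the cDC1 side, 14 genes were higher in L-cDC1 by call and not called in cDC2, with a median of 1.35 in cDC1 and 0.05 in cDC2 and a range in cDC2 from -0.46 to 2.51. Dusp2, a phosphatase gene of the MAP kinase pathway, stood at 18.4, 36.4 and 46.2 FPKM in L-cDC1 versus 10.6, 7.32 and 7.48 in M-cDC1, without overlap. Its cDC2 libraries overlapped, at 37.5, 38.4 and 26 FPKM in L and 16.5, 38.5 and 32 in M. L minus M was 1.80 in cDC1 (limma adjusted p = 0.0322) and 0.28 in cDC2, and the interaction of 1.51 did not pass (SE 0.463, adjusted p = 0.315). Il21r, the interleukin 21 receptor gene, stood at 8.56, 6.34 and 7.95 FPKM in L-cDC1 versus 3.72, 3.03 and 4.73 in M-cDC1. In cDC2 it stood at 85.8, 104 and 86.1 FPKM in L and at 110, 87.6 and 81.1 in M, which overlapped. The difference was 0.84 in cDC1 (adjusted p = 0.0453) and -0.0048 in cDC2. The interaction was 0.85 (adjusted p = 0.240).

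**Figure D3:**
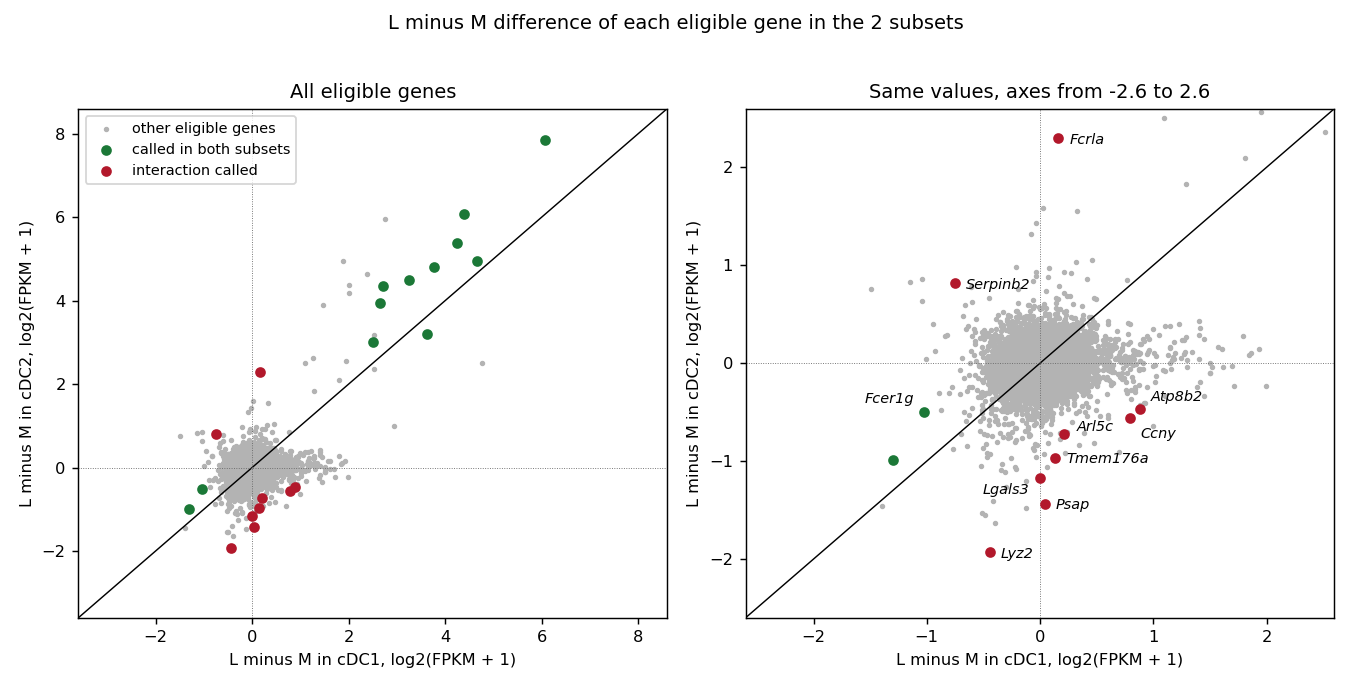
L minus M in cDC2 against L minus M in cDC1, each on the log2(FPKM + 1) scale, for the 6035 eligible genes, with the diagonal of equal differences; the right panel shows the same values on narrower axes. The 12 genes called in both subsets (green) lie in the upper right or lower left quadrant, and 7 of the genes with a called interaction (red) lie under the diagonal.

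In all, 12 genes were called in both subsets, each in the same direction, 10 higher and 2 lower in L, and none had a called interaction. They were 44.4% of the cDC1 calls and 15% of the cDC2 calls. Over all genes tested, 0.394% were called in cDC1 and 1.83% in cDC2, and the share called in both is not given here. Of the 12, 10 reached 5 FPKM in each subset only through the L group, and the level rule thus favoured genes higher in L. Fcer1g, the signalling chain shared by several Fc receptors, was one of the 2 lower genes. It stood at 30.2, 25.7 and 27 FPKM in L-cDC1 versus 59.8, 62.3 and 50.3 in M-cDC1, and at 743, 739 and 846 in L-cDC2 against 978, 1216 and 1114 in M-cDC2. L was under M in every library of both subsets, at -1.03 in cDC1 (limma adjusted p = 0.000676) and -0.50 in cDC2 (adjusted p = 0.0342). The interaction of -0.52 had an interval from -0.87 to -0.18 but did not pass over all genes (adjusted p = 0.298).

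The 10 genes higher in L in both subsets are known from lymphocytes. Ly6d, a surface protein gene of early B-lineage cells, stood at 11.6, 33.3 and 39.9 FPKM in L-cDC1 and at 27, 71.5 and 39.5 in L-cDC2, and was at most 1.1 FPKM in an M library. L minus M was 4.67 in cDC1 and 4.94 in cDC2, with limma adjusted p = 0.000169 and 2.85e-05. Its interaction of -0.27 had a wide interval, from -1.55 to 1.01. Nkg7, a granule protein gene of cytotoxic lymphocytes, stood at 7.93, 6.23 and 3.94 FPKM in L-cDC1 and 28.5, 36.7 and 10.5 in L-cDC2, with an interaction of -1.64 (SE 0.518, adjusted p = 0.345).

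Within the L groups these genes spread widely. Igkc, the constant gene of the immunoglobulin kappa chain, stood at 137, 194 and 404 FPKM in L-cDC1 and at 270, 1977 and 724 in L-cDC2, against 1.37 to 2.93 in M libraries. L-cDC2 replicate 2 held the highest value of Igkc, Cd79a, Ly6d, Jchain and Fcmr, and L-cDC1 replicate 3 the highest of each of these in cDC1. Limma-voom on recovered reads adds a small constant to the read counts in place of 1 to the FPKM. By this method the interaction of Ly6d was 1.39 and that of Jchain 0.21, each of the opposite sign. A direction of the interaction therefore cannot be given for these 2 genes. The part of lymphocyte RNA in these results was not tested.

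**Figure D4:**
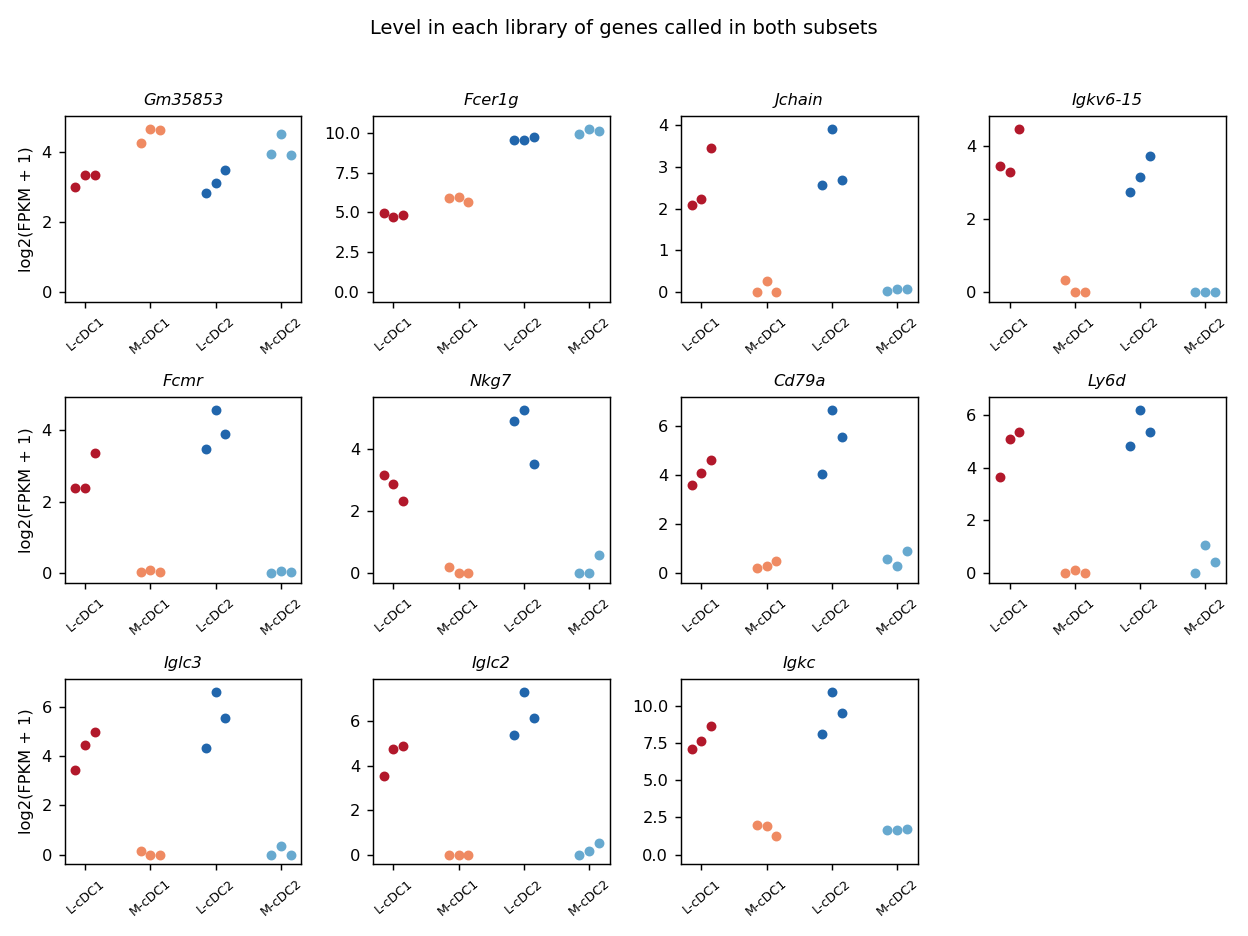
Level on the log2(FPKM + 1) scale in each library (points, n = 3 per group) of 11 of the 12 genes called in both subsets. Among the 9 genes shown that were higher in L, the M libraries lie at or under 1.1 FPKM except for Igkc, at 1.37 to 2.93, and Fcer1g and Gm35853 lie lower in L than in M in each subset.

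Apart from the lymphocyte genes, the estimated L minus M differences in the 2 subsets were only weakly correlated. Across the 6035 eligible genes, which are not independent replicates, the Pearson correlation of L minus M in cDC1 with that in cDC2 was 0.49 and the Spearman correlation 0.17. These contrasts share no library but were prepared with the same kits. Without receptor segments the values were 0.30 and 0.16 (6017 genes), and also without the lymphocyte marker lists 0.15 and 0.16 (6003 genes). They are a description and carry no test. Most differences were small, with a median size of 0.14 in cDC1 and 0.13 in cDC2. Error in such estimates can lower a correlation, so a weak value does not show that the subsets differ.

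The precision limits what can be said of genes without a call. The 95% interval of the interaction lay within 1 log2 unit of 0 for 5087 eligible genes (84.3%), reaching a median of 0.48 to either side of the estimate over all. It lay wholly above 1 for 2 genes and wholly below -1 for 4. At an unadjusted p under 0.05 the interaction was positive in 326 eligible genes and negative in 206, beside 4.75% and 3.78% of all genes tested. The median interaction over eligible genes was -0.0037.

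The eligible genes that define cDCs or their fate had no called interaction. Irf8, the transcription factor that cDC1 need, stood at 557, 546 and 606 FPKM in L-cDC1 and 549, 495 and 586 in M-cDC1, and at 9.24, 15.9 and 10.3 in L-cDC2 and 16.3, 10.8 and 9.05 in M-cDC2. The groups overlapped in both subsets, and the interaction was 0.09 with an interval from -0.51 to 0.69. Batf3, a partner of Irf8, had an interaction of 0.10 (interval -0.25 to 0.46), and Zbtb46, a factor shared by cDCs, one of 0.15 (-0.27 to 0.57). Flt3, the receptor for the cytokine that maintains cDCs, had 0.35 (0.0012 to 0.70, limma adjusted p = 0.585), and Id2, an inhibitor of E proteins, -0.46 (-0.91 to -0.0065, adjusted p = 0.585). Runx3, a transcription factor of lymphocytes and cDCs, had -0.05 (-0.45 to 0.35). Cd7, a lymphocyte surface protein that is abundant in cDC2, had 0.15 (-0.35 to 0.66). Cd74, the invariant chain of MHC class II and one of the most abundant transcripts here, had 0.22 (-0.05 to 0.49). The list of dendritic cell transcription factors had 29 eligible members, 23 of them with a positive interaction, a median of 0.22 and no call. At an unadjusted p under 0.05 (limma), 5 were positive and 1 negative, beside 5.4% and 3.41% of all eligible genes.

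Gene lists were described by their counts and their median beside the median of all eligible genes (-0.0037). Of all eligible genes, 5.4% had a positive and 3.41% a negative interaction at an unadjusted p under 0.05 (limma). The list counts at that p, here and below, are to be read beside these shares. The cDC2 identity list had 9 eligible members of 26, all 9 with a positive interaction, a median of 0.41 and no call. Its medians of L minus M were 0.15 in cDC1 and -0.24 in cDC2, and 2 members were called lower in L-cDC2. Members near 0 in cDC1, such as Sirpa and Irf4, were not eligible, so the median leaves out genes particular to cDC2. Relb, an NF-kB subunit gene of cDC2, had an interaction of 0.65 (adjusted p = 0.261), and Clec12a, an inhibitory lectin gene that stood higher in cDC1 here, one of 0.81 (limma adjusted p = 0.348). The cDC1 identity list had 10 eligible members of 22, 7 of them positive, with a median of 0.13 and no call. Of 8 eligible monocyte and macrophage markers, 7 were positive, with a median of 0.34 and 1 call (Lyz2). Apoe, a lipid carrier gene of macrophages, was the exception, at -0.60 (adjusted p = 0.555), with a called higher level in L-cDC2 (1.05, adjusted p = 0.00774).

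Lists of antigen presentation and activation also had positive medians. MHC class II presentation had 20 eligible members, 15 of them positive, with a median of 0.21, 3 positive and 0 negative at an unadjusted p under 0.05 and no call. Lgmn, a lysosomal protease gene, had 0.12 in cDC1 and -0.43 in cDC2 with an interaction of 0.55 (limma adjusted p = 0.245). MHC class I presentation stood at 0.02 over 25 members, with none at that unadjusted p. The maturation and migration list had a median of 0.28 over 21 members, 8 positive and 1 negative at an unadjusted p under 0.05 and no call. Its member Ccr7, the receptor that guides cDCs to lymph nodes, stood at 72.6, 67.4 and 78.2 FPKM in L-cDC1 versus 51, 40.2 and 50 in M-cDC1, and at 74.4, 68.1 and 76.3 in L-cDC2 against 80.8, 58.4 and 70 in M-cDC2. Its difference was 0.62 in cDC1 (adjusted p = 0.0629) and 0.08 in cDC2, with an interaction of 0.55 (interval 0.15 to 0.94, adjusted p = 0.387). The costimulatory receptor gene Cd40 had 0.37 and -0.15, with an interaction of 0.52 (adjusted p = 0.332).

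The cytokine and chemokine list had a median interaction of 0.50 over 11 members, 5 of which were positive and none negative at an unadjusted p under 0.05. Il1b, the interleukin 1β gene, stood at 88.9, 86.7 and 90.2 FPKM in L-cDC2 against 183, 140 and 151 in M-cDC2, without overlap, and overlapped in cDC1 at 37.9, 32.9 and 25 in L and 44.5, 30.1 and 25.8 in M. Its difference was -0.82 in cDC2 (limma adjusted p = 0.0387) and -0.05 in cDC1, and the interaction of 0.77 did not pass (adjusted p = 0.396). The lysosome and lipid list, to which Psap belongs, had a median of 0.10 over 35 members, with 9 positive and none negative at an unadjusted p under 0.05 and Psap its only call. The lysosomal membrane gene Lamp1 had an interaction of 2.23, with an SE of 0.590 (adjusted p = 0.227). The M-cDC1 libraries stood at 12.5, 5.5 and 3.76 FPKM and L-cDC1 libraries at 19.8, 24.9 and 48.2.

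Lists of growth and protein synthesis had negative medians. Of 81 eligible cytosolic ribosomal protein genes, 71 had a negative interaction, with a median of -0.29, 13 negative and 0 positive at an unadjusted p under 0.05, and no call. Their medians of L minus M were -0.34 in cDC1 and -0.05 in cDC2. Rpl31 stood at 115, 131 and 150 FPKM in L-cDC1 versus 162, 183 and 168 in M-cDC1, without overlap, and at 97.4, 112 and 111 in L-cDC2 against 97.1, 89.6 and 103 in M-cDC2, with an interaction of -0.52 (limma adjusted p = 0.298). Oxidative phosphorylation subunits, which make up the respiratory chain and ATP synthase, had a median of -0.21 over 77 members, 63 of them negative, with medians of -0.26 in cDC1 and -0.06 in cDC2. Ndufa6, a subunit gene of complex I, had -0.42 in cDC1 (adjusted p = 0.0914) and 0.14 in cDC2, with an interaction of -0.56 (adjusted p = 0.178). Mitochondrial ribosomal proteins stood nearer to 0, at -0.08 over 68 members.

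Cell cycle genes had a median of -0.20 over 39 members, 31 of them negative, from medians of -0.06 in cDC1 and 0.14 in cDC2. Cdk1, the kinase that drives entry to mitosis, stood at 4.16, 9.46 and 3.79 FPKM in L-cDC1 versus 8.10, 7.92 and 9.47 in M-cDC1, which overlapped, with an interaction of -0.89 (limma adjusted p = 0.446). Type I interferon response genes had a median of 0.05 over 29 members, and immediate early and stress response genes one of 0.15 over 37. None of these 3 lists held a called interaction.

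**Figure D5:**
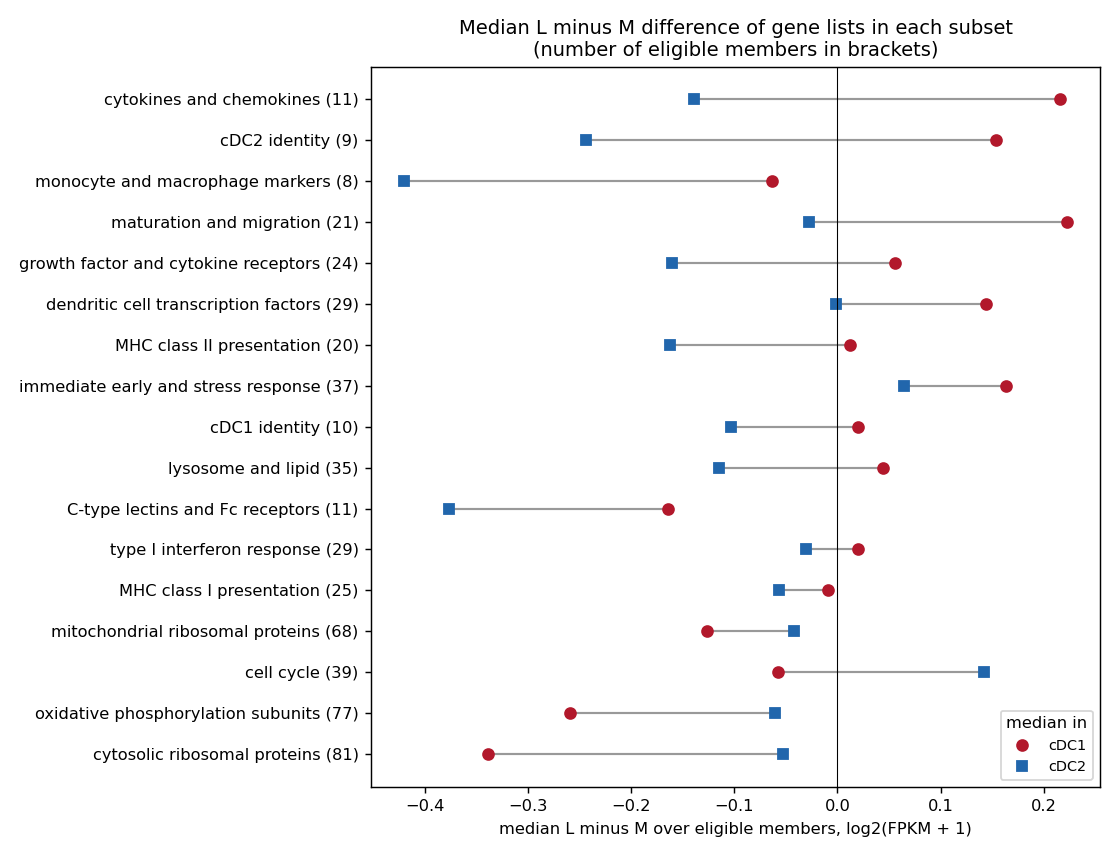
Median L minus M on the log2(FPKM + 1) scale over the eligible members of each gene list in cDC1 (red circles) and cDC2 (blue squares), with the number of eligible members in brackets; B cell markers, with medians of 2.66 and 2.63, are off this scale and left out. The cDC2 square lies to the left of the cDC1 circle for cDC2 identity genes (-0.24 against 0.15) and to its right for cytosolic ribosomal protein genes (-0.05 against -0.34).

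The B cell marker list had 13 eligible members, 10 of them with a negative interaction, and a median of -1.22, although the medians of L minus M were alike at 2.66 in cDC1 and 2.63 in cDC2. The median interaction was -0.75 without L-cDC2 replicate 2 and -0.43 by limma-voom. In 11 of the 13 a subset reached 5 FPKM only through its L group. Cd79b, a chain of the B cell receptor complex, had a positive value, and its M-cDC2 level was well above 0. It stood at 35, 23.4 and 28.6 FPKM in M-cDC2 and 38.8, 74.1 and 69.4 in L-cDC2, against 3.11, 1.33 and 0.764 in M-cDC1 and 9.90, 19.2 and 34 in L-cDC1. Its L minus M was 2.94 in cDC1 (limma adjusted p = 0.00374) and 1.01 in cDC2 (adjusted p = 0.346), with an interaction of 1.94 (SE 0.551, adjusted p = 0.266). Ms4a1, which encodes the B cell protein CD20, stood at 9.10, 14.1 and 11.3 FPKM in L-cDC2 against 4.16, 2 and 3.80 in M-cDC2, and overlapped in cDC1. Its L minus M was 1.55 in cDC2 (adjusted p = 0.00237) and 0.33 in cDC1, with an interaction of -1.22 (adjusted p = 0.240).

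Genes called higher in L-cDC2 outside the B cell list included Serpinb6b and Cd38. Both reached 5 FPKM in cDC2 only through the L group, so the level rule favoured them. Their M-cDC2 means were 4.36 and 4.46 FPKM. Serpinb6b, a protease inhibitor gene, stood at 11.3, 15.3 and 11.3 FPKM in L-cDC2 against 5.49, 1.89 and 5.70 in M-cDC2, and at 69.6, 54.9 and 57.7 in L-cDC1 versus 56.5, 73.3 and 57 in M-cDC1, which overlapped. Its L minus M was 1.43 in cDC2 (limma adjusted p = 0.0101) and -0.03 in cDC1, with an interaction of -1.46 (adjusted p = 0.207). Cd38, an ectoenzyme gene that consumes NAD, had 1.32 in cDC2 (adjusted p = 0.0167) and -0.08 in cDC1, with an interaction of -1.40 (adjusted p = 0.227).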

How the data were processed

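RNA of sorted cDCs was made into SMART-Seq HT and Nextera XT libraries, which do not mark strand, per the labels' protocols. The deposited table gave FPKM per gene, as its name says, beside a gene length. The submitters' processing notes list, in no stated role, STAR 2.7.9a, featureCounts 2.0.1, DESeq2 1.20.0, cutadapt 3.7, Trim Galore 0.6.7 and Trimmomatic 0.39, and a human build, whereas the symbols are mouse. The table names no build. FPKM times length gave whole reads for 100% of values, within 0.01 read. The floor given as 3 reads covers counting error only.

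Genes with 1 FPKM in at least 3 of 12 libraries were tested (12434). In limma 3.58.1 (R 4.3.3) a mean per group was fitted to log2(FPKM + 1) of all libraries, with the intensity trend on, 8 residual degrees of freedom and two-sided p-values adjusted over all genes tested. Scripts were tested on simulated data. With 3 libraries against 3, exact permutation cannot reach below a two-sided p of 0.1.

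Named genes were, without receptor segments, unnamed models and repeated symbols, up to 12 called interaction genes in each direction, 5 per sign pattern, called list members, 8 genes called in both subsets, and 24 genes fixed by name; others are list examples or next by p, chosen after their values were seen. Some genes are not reported here. The members and the 35 lists were chosen with earlier results of these data known. Promoter sequences matched 4763 of the 6035 eligible symbols; Arl5c and Ccny have none here. Alternatives changed the pseudocount, filters, scaling, trend, weights, test, replicate block, level rule and libraries.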

Additional observations from a re-analysis of the deposited data

Results flagged for a closer look

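For each gene with a called interaction the effect of L against M differed between the 2 subsets by a test of the difference itself (limma, adjusted p under 0.05). The interaction, L minus M in cDC1 minus L minus M in cDC2, was 1.48 for Psap, 1.49 for Lyz2, 1.17 for Lgals3, 1.1 for Tmem176a, 0.94 for Arl5c, 1.35 for Atp8b2 and 1.36 for Ccny. It was -2.14 for Fcrla and -1.56 for Serpinb2. The sign was kept in all 22 alternatives that gave each gene a value. The call was kept in 21 of the 22 for Psap, 17 for Fcrla, 12 for Atp8b2, 11 for Lyz2, 10 for Lgals3, 8 for Ccny, 8 for Arl5c, 7 for Tmem176a and 6 for Serpinb2. Single libraries that stand apart from their group were not searched for, since each group holds 3.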

How the results depend on the processing

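The number of eligible genes with a called interaction, 9 (7 positive, 2 negative, 6 with opposite signs), moved with several choices. It was 6 (5, 1; 3 opposite) with a pseudocount of 0.1, 8 (7, 1) with 5, 12 (9, 3) with a 5 FPKM filter, 9 with median-of-ratios scaling, 12 (10, 2) with quantile normalization, 10 (7, 3) with array weights, 4 (3, 1; 3 opposite) without the intensity trend and 5 (5, 0) by limma-voom on recovered reads. Without a filter on low values it was 0 (0, 0; 0 opposite) by limma (576 at an unadjusted p under 0.05), where 28712 genes were tested. With the level rule at 2 FPKM it was 18 (13, 5; 13 opposite) and at 10 FPKM 4 (4, 0; 2 opposite). Leaving out 1 library gave 1 to 16 (1 to 15 positive, 0 to 3 negative, 1 to 9 opposite), with 1 left without M-cDC1 replicate 2 or M-cDC2 replicate 2 and 16 without M-cDC1 replicate 1. The L minus M count in cDC1, 27, was 8 with a pseudocount of 5, 7 without a filter, 60 with the 5 FPKM filter, 15 without the trend, 45 at 2 FPKM and 12 to 80 with 1 library left out, lowest without M-cDC1 replicate 2 and highest without M-cDC1 replicate 1. In cDC2 the count, 80, was 121 at 2 FPKM and 53 to 86 with 1 library left out. The cause of these moves was not tested. Opposite signs are those of the 2 estimated differences alone, and none of the 9 genes was called in both subsets. For Psap, counted among the 6, the cDC1 interval ran from -0.23 to 0.31.

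The replicate block gave 6 interaction calls (4 positive, 2 negative, 3 with opposite signs), of which 5 were among the 9. It ended the calls of Atp8b2 (adjusted p = 0.0566), Ccny (0.0572), Arl5c (0.0586) and Tmem176a (0.0795). The numbers were not taken as pairs, since 4 of 18 same-numbered pairs correlated above 0.1 (range -0.0445 to 0.257), although 9 of 12 libraries correlated best with their own number, which is a hint from the data and not from the design.

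Over 24 alternatives several list medians moved by over 1.5 times. They ran from -1.53 to -0.43 for B cell markers, 0.19 (without L-cDC1 replicate 3) to 0.46 for monocyte markers, 0.018 to 0.094 (quantile normalization) for MHC class I, 0.19 (without L-cDC1 replicate 3) to 0.35 for maturation, 0.081 (without M-cDC2 replicate 2) to 0.24 (without L-cDC1 replicate 1) for immediate early genes, 0.066 to 0.15 (without L-cDC1 replicate 3) for lysosome and lipid genes, -0.26 to -0.095 (without M-cDC2 replicate 1) for the cell cycle, -0.36 to -0.17 (without L-cDC1 replicate 1) for cytosolic ribosomal proteins, and -0.11 to -0.046 and -0.25 to -0.13 (both without M-cDC1 replicate 2) for mitochondrial ribosomal proteins and oxidative phosphorylation. The interferon median ran from -0.0092 (without M-cDC2 replicate 1) to 0.099 and the median of all eligible genes from -0.019 to 0.013, so these 2 have no stable sign. Nor has that of C-type lectins and Fc receptors, 0.07, which ran from -0.081 (without L-cDC1 replicate 2) to 0.12. The medians of cDC1 identity genes and dendritic cell transcription factors ran from 0.089 to 0.24 and from 0.14 to 0.27.

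Of 1210 values for the 55 other named genes, 1179 kept their sign and side of the threshold, 16 in 12 genes passed it and 15 in 7 genes changed sign. These were Ly6d (0.88 with a pseudocount of 0.1, 1.39 by voom, -0.60 to 0.25 with 1 library left out), Irf8 (-0.029 with array weights, -0.13 to 0.31), Jchain (0.21 by voom), Runx3 (-0.17 to 0.013), Batf3 (-0.0037 to 0.20), Cd7 (-0.048 to 0.30) and Zbtb46 (-0.0060 to 0.27).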

Other observations

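Of the 6399 genes tested that were not eligible, 28 had a called interaction by limma, beside 0.298% of all genes tested. These 28 stayed under 5 FPKM in both groups of at least 1 subset. They are given as values chosen after they were seen. Il12b, which encodes the p40 chain of interleukin 12, averaged 30.6 ± 6.80 (L) and 16.1 ± 0.709 (M) FPKM in cDC1, but 0.831 ± 0.199 (L) and 2.57 ± 0.227 (M) in cDC2 (SD, n = 3 each). It passed the test in both subsets with opposite signs, at 0.87 in cDC1 (limma adjusted p = 0.0369) and -0.97 in cDC2 (adjusted p = 0.00539). Olfm1, an olfactomedin gene, averaged 46.1 (L) and 32.1 (M) FPKM in cDC1 against 1.03 (L) and 3.82 (M) in cDC2, with 0.52 in cDC1 (adjusted p = 0.332) and -1.28 in cDC2 (adjusted p = 0.00151). The iron transporter gene Slc11a1 and the Toll-like receptor gene Tlr12 were high in cDC1 without a called difference there. In cDC2, Slc11a1 averaged 0.905 FPKM in L and 3.50 in M, and Tlr12 averaged 3.82 in L and 1.05 in M. Of the cDC1 marker genes, Clec9a averaged 0.729 (L) and 2.11 (M) FPKM in cDC2, and Xcr1 0.88 (L) and 1.62 (M). Itgae went the other way, at 0.746 (L) and 0.386 (M). The part of cDC1 RNA in the cDC2 values of these genes was not tested.

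Genes seen mainly in cDC2 included the lectin-like receptor genes Clec4a3, at 19.6 FPKM in L-cDC2 and 64.1 in M-cDC2, and Clec7a, the β-glucan receptor, at 6.90 and 27.9. The receptor gene Cd300lb averaged 4.04 FPKM in L-cDC2 and 18.1 in M-cDC2, the adhesion receptor gene Adgre4 averaged 4.64 and 24.5, and Ace, the angiotensin-converting enzyme gene, averaged 0.412 and 4.60. Of the 28 genes, 15 were called lower and 10 called higher in L-cDC2, beside 0.788% and 1.04% of all genes tested. The 10 higher genes included 5 antigen receptor genes, Tlr12, the granzyme gene Gzma, Col17a1, Klra4 and Phc1. Phc1, a Polycomb gene, stood at 24.5 FPKM in L-cDC2 and 11.4 in M-cDC2, with L minus M of 1.05 (limma adjusted p = 0.00237).

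In cDC1 a difference was called for 4 of the 28, Il12b and 3 genes more abundant in cDC2. Ighj1, a joining segment of the immunoglobulin heavy chain, was listed at 0 in every L-cDC1 library and at 5.88, 1.06 and 5.16 FPKM in M-cDC1 (limma adjusted p = 0.00926), against means of 44.5 (L) and 22.9 (M) in cDC2. It is 53 bases long, and 3 reads were worth 3.56 FPKM in the shallowest library, so its M-cDC1 values rest on few reads. Cyp4f18, a fatty acid hydroxylase gene, averaged 3.13 (L) and 0.279 (M) FPKM in cDC1, against 27.7 (L) and 26.9 (M) in cDC2. Spib, an Ets factor gene of B cells and plasmacytoid dendritic cells, averaged 3.50 (L) and 0.277 (M) FPKM in cDC1, against 31.2 (L) and 42.2 (M) in cDC2. L minus M of Cyp4f18 and Spib in cDC1 was 1.69 (limma adjusted p = 0.00174) and 1.70 (adjusted p = 0.0181).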
